A study of Rattus norvegicus with 18 samples.

Results

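The proteins of the Slc25 family carry metabolites, nucleotides, cofactors and ions across membranes, nearly all of them across the inner membrane of mitochondria. Their genes were followed in the extensor digitorum longus (EDL), a fast hindlimb muscle, of rats with a high-fat or a chow diet in their own life and in that of their grandfather. The members are the genes whose symbol starts with Slc25a and that have a probe set annotated to that single gene. Slc25a20, the acylcarnitine carrier, was left out by this rule. It gave 41 genes with 45 probe sets, of 16856 genes and 20917 probe sets in all, and the probe set of highest mean stood for each gene. Of these, 38 passed the filter on low values (mean log2 level above 5.28) and could be tested. Slc25a21 (mean 5.09), Slc25a47 (5.24) and Slc25a48 (5.00) did not pass, and Slc25a31 (5.35) and Slc25a45 (5.42) were the lowest that did. The aspartate/glutamate carrier Slc25a12 and the NAD carrier Slc25a51 had no probe set of their own and are not analysed here.

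RNA came from 18 adult female Sprague-Dawley rats, granddaughters (F2) of the founder animals, each on a chow diet or on a high-fat diet with 42/45% of energy from fat for 12 weeks. The groups, named by the diet of the founding (F0) grandfather and then by the diet of the female, were high-fat/high-fat (n = 4), high-fat/chow (n = 4), chow/high-fat (n = 5) and chow/chow (n = 5). "Lineage" below means the diet of the grandfather. How many founders each lineage had is not stated, so p-values for the grandpaternal diet count females as independent, although females of 1 lineage may share a grandfather. Levels are log2 of the quantile-normalized array intensity plus 16, and a difference is high-fat minus chow on that scale, which understates the change of weakly detected genes. Array intensities of different probe sets are not comparable, so levels are compared between animals only. The deposited array medians ran from 55.02 to 73.97. As in any whole muscle, fewer cells of a type and less RNA per cell cannot be told apart.

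Each carrier of the inner membrane binds its substrate on 1 side, changes shape and releases it on the other, usually in exchange for a second substrate. In muscle the best known pair of tasks is the exchange of ADP for ATP, done by the adenine nucleotide translocators such as Slc25a4, and the import of phosphate by Slc25a3, both needed for ATP synthesis. Other members move the carboxylates and amino acids of the malate-aspartate shuttle, cofactors such as coenzyme A, or iron for haem and iron-sulphur clusters. The 38 tested members comprised 4 ADP/ATP and phosphate carriers, 4 ATP-Mg/phosphate carriers, 7 of nucleotides and cofactors, 3 of di- and tricarboxylates, 10 of amino acids and glutathione, 2 of iron, 3 related to the uncoupling proteins and 5 with no settled substrate.

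With the high-fat diet of the female, averaged over both lineages, 0 of the 38 carriers passed the threshold (limma, adjusted p under 0.05), where 0.0158% of all 12642 genes did. At an unadjusted p under 0.05 stood 4 carriers (10.5% of 38), against 6.73% of all genes. These were Slc25a42, Slc25a34, Slc25a23 and Slc25a22, all with higher levels in high-fat-fed females on average (3.29% of all genes were higher at that p). For Slc25a23 this held for the probe set used, at 0.24, while its other probe set gave 0.019. In the chow lineage the probe set used gave -0.069. Of the 38 differences, 24 were above 0 (63.2%, against 48.3% of all genes) and 14 below, and their median was 0.012 log2, against -0.0028 over all genes. The 4 named genes held the 4 largest differences above 0. All but 2 of the females form 8 pairs of neighbouring animal numbers in 1 lineage, 1 fed high-fat and 1 chow, although the labels do not say that such numbers mark litters. Slc25a42 and Slc25a34 were higher in the high-fat-fed female of all 8 pairs (5.26% of the 38 carriers, against 0.846% of all genes), and 0 carriers were lower in all 8 (0.538% of all genes).

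**Figure D1:**
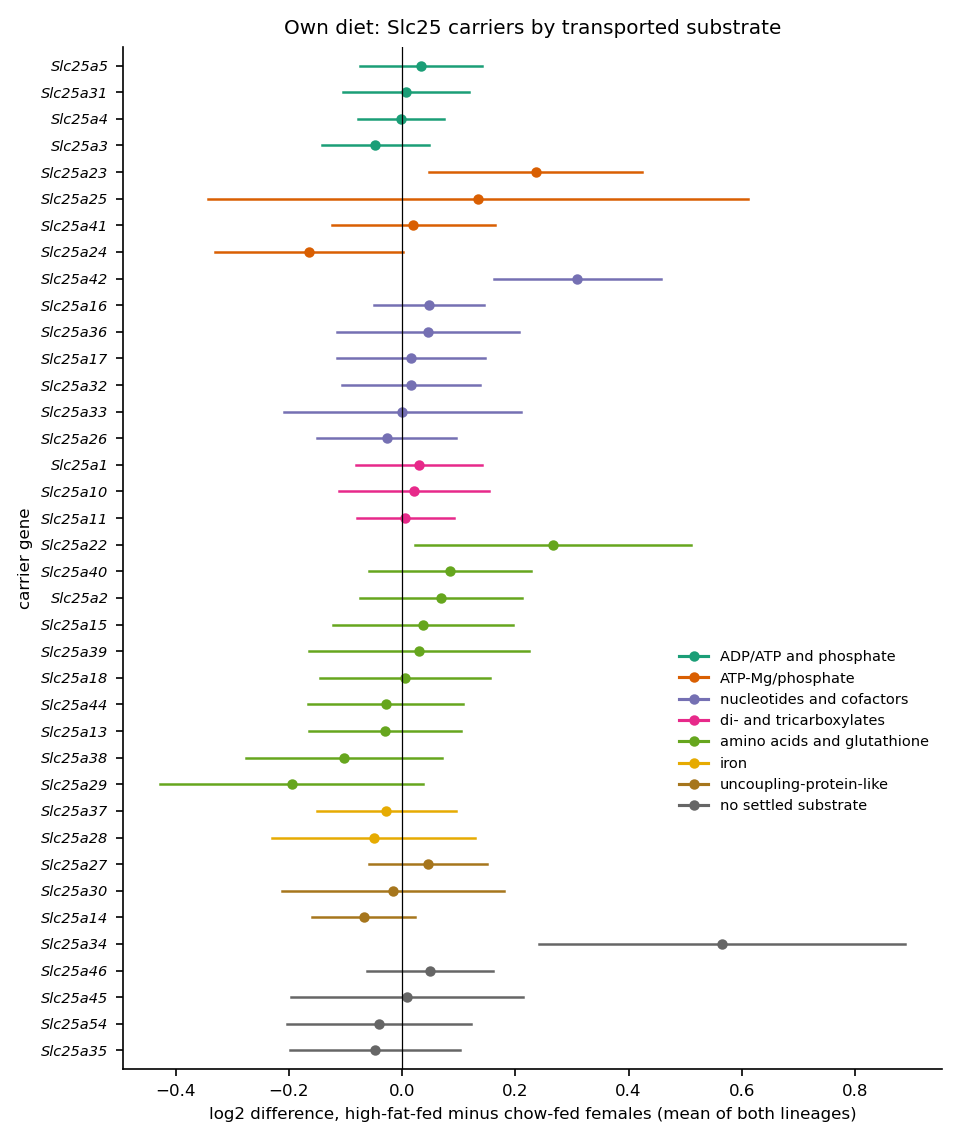
Log2 difference between high-fat-fed and chow-fed females, averaged over both lineages, for the 38 tested carriers, with 95% confidence intervals and coloured by transported substrate. The intervals of Slc25a42, Slc25a34, Slc25a23 and Slc25a22 lie above 0, and 0 carriers passed the threshold after adjustment over all genes. Slc25a23 is shown by its probe set of highest mean.

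The promoters of the 3 genes with the smallest p for the female's diet are shown because these genes carry the own-diet differences below. Each runs from 250 bases before the annotated start of the gene to 50 bases after it, in the direction of transcription (RefSeq, GRCr8). Capitals mark CCAAT boxes (CCAAT), GC boxes (GGGCGG) and nuclear receptor half-sites (AGGTCA), on either strand. The Slc25a42 window lies at chr16:19247724-19248023 on the plus strand, that of Slc25a34 at chr5:159219843-159220142 on the minus strand and that of Slc25a23 at chr9:1985316-1985615 on the minus strand.
Slc25a42: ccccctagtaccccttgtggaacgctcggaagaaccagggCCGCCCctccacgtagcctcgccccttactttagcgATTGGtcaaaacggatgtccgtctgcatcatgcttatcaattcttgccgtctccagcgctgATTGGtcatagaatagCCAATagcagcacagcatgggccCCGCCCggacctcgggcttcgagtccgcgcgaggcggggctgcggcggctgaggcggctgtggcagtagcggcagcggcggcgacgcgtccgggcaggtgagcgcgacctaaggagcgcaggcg
Slc25a34: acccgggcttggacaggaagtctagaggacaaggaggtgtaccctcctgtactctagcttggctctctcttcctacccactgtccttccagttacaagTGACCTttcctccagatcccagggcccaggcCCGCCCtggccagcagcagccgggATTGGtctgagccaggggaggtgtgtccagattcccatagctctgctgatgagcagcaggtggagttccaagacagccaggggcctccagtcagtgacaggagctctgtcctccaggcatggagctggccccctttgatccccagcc
Slc25a23: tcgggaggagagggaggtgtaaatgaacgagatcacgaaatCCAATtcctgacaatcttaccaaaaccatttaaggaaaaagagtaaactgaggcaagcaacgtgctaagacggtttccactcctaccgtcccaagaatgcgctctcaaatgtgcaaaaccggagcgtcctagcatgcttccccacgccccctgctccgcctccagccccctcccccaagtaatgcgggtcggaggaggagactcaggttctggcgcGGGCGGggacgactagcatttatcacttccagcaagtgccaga
The Slc25a42 window held 3 CCAAT boxes and 2 GC boxes, with a GC content of 65%. That of Slc25a34 (60.7% GC) held 1 CCAAT box, 1 GC box and 1 half-site, and that of Slc25a23 (54.3% GC) held 1 CCAAT box and 1 GC box. A promoter was found for 35 of the 41 members. CCAAT was present in 60% of these 35, against 36.9% of the 11291 promoters of tested genes and members, and GGGCGG in 68.6% against 57.3%. Shares of the members are counted by gene (35 genes with 36 promoters), and the others by promoter. The half-site stood in 17.1% of the carriers' promoters, against 12.7%. A direct repeat of it with 1 base between, the element bound by peroxisome proliferator-activated receptors, was in 0 of 35, against 0.0354%. The cyclic AMP element TGACGTCA was found in 2 members, Slc25a25 and Slc25a33 (5.71%, against 2.8%), the E-box CACGTG in 11.4% against 9.03%, and the element of nuclear respiratory factor 1 in 2.86% against 8.38%. The median GC content was 59.3% in the members and 60% in the 11291 promoters. Letters found are a description of these windows, and longer motifs can overlap the shorter ones they contain.

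Slc25a42 exchanges cytosolic coenzyme A for adenine nucleotides of the matrix. In the chow lineage its log2 level was 9.43, 9.33, 9.46, 9.41 and 9.27 in the 5 high-fat-fed females, against 9.28, 8.94, 9.13, 8.97 and 9.13 in the 5 chow-fed ones. In the high-fat lineage it was 9.37, 9.70, 9.16 and 9.12 in high-fat-fed females, against 8.91, 8.97, 8.998 and 9.14 in chow-fed ones. All high-fat-fed females of the chow lineage but 1 lay above all chow-fed ones, while in the high-fat lineage the lowest high-fat-fed female lay just under the highest chow-fed one. The averaged difference was 0.31 (SE 0.071, 95% confidence interval 0.16 to 0.46, 1.24-fold), with a limma adjusted p of 0.201 (rank 20 among all genes). It was 0.29 in the chow lineage (SE 0.094) and 0.33 in the high-fat lineage (SE 0.11), and the interaction was 0.043 with an interval of -0.25 to 0.34. Without high-fat/high-fat replicate 2 the difference in the high-fat lineage was 0.21. Within the well columns that the sample titles carry, whose meaning is not stated, the own-diet difference was 0.36 and 0.22 in the chow lineage. In the high-fat lineage it was 0.18, 0.21 and 0.39. Values within well columns, here and below, rest on 1 to 3 females per group.

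Slc25a34 has no settled substrate. Its log2 level was 7.02, 8.16, 7.19 and 6.89 in high-fat-fed females of the high-fat lineage, against 6.35, 6.69, 6.86 and 6.61 in their chow-fed counterparts. In the chow lineage it was 7.51, 6.99, 7.48, 7.25 and 7.33 in high-fat-fed females, against 7.15, 6.33, 6.99, 6.61 and 7.28 in chow-fed ones. The 2 groups of the high-fat lineage did not overlap, and those of the chow lineage did. The averaged difference of 0.57 (SE 0.15, interval 0.24 to 0.89, 1.48-fold) was the largest of the family, with an adjusted p of 0.343. By lineage it was 0.69 in the high-fat lineage and 0.44 in the chow lineage. Without the highest animal, high-fat/high-fat replicate 2, the value of the high-fat lineage was 0.40. Within the well columns the difference ran between 0.42 and 0.98 in the high-fat lineage, and was 0.69 and 0.28 in the chow lineage.

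Slc25a23 is a calcium-sensitive carrier that exchanges ATP-Mg for phosphate and so influences the adenine nucleotide pool of the matrix. In the high-fat lineage its log2 level was 9.999, 10.32, 10.64 and 10.67 in high-fat-fed females, against 9.70, 9.93, 9.87 and 9.97 in chow-fed ones, without overlap. In the chow lineage the values were 10.43, 9.97, 10.13, 9.95 and 9.94 in high-fat-fed females, against 10.35, 9.97, 10.26, 10.05 and 10.15 in chow-fed ones, and the groups overlapped. The difference was 0.54 in the high-fat lineage (SE 0.13, interval 0.26 to 0.82, 1.45-fold, adjusted p = 0.263) and -0.069 in the chow lineage (SE 0.12). Its interaction, 0.61 (SE 0.18), was the largest of the family, with an adjusted p of 0.649. A second probe set of Slc25a23 did not show this: there the difference in the high-fat lineage was -0.011 (SE 0.13) and the interaction -0.060 (SE 0.18). The result on Slc25a23 therefore holds for 1 of its 2 probe sets only. Which transcripts each of them covers was not tested.

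Slc25a22, a glutamate carrier, had an averaged own-diet difference of 0.27 (SE 0.12, adjusted p = 0.718). In the high-fat lineage its log2 level was 7.55, 7.73, 7.05 and 6.61 with the high-fat diet, against 6.91, 7.09, 7.17 and 6.82 with chow. In the chow lineage it was 7.59, 7.11, 7.38, 7.44 and 7.41 with the high-fat diet, against 7.26, 6.86, 7.25, 7.02 and 7.09 with chow. The high-fat/high-fat females held both the lowest and the highest value of the gene in these 4 groups. Within the well columns the own-diet difference of Slc25a22 was -0.075, -0.30 and 0.82 in the high-fat lineage. In the chow lineage it was 0.47 and 0.052. The averaged difference was 0.18 without high-fat/high-fat replicate 2 and 0.37 without high-fat/high-fat replicate 4. A related carrier of glutamate, Slc25a18, gave 0.004 on average, with an interval of -0.15 to 0.15.

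**Figure D2:**
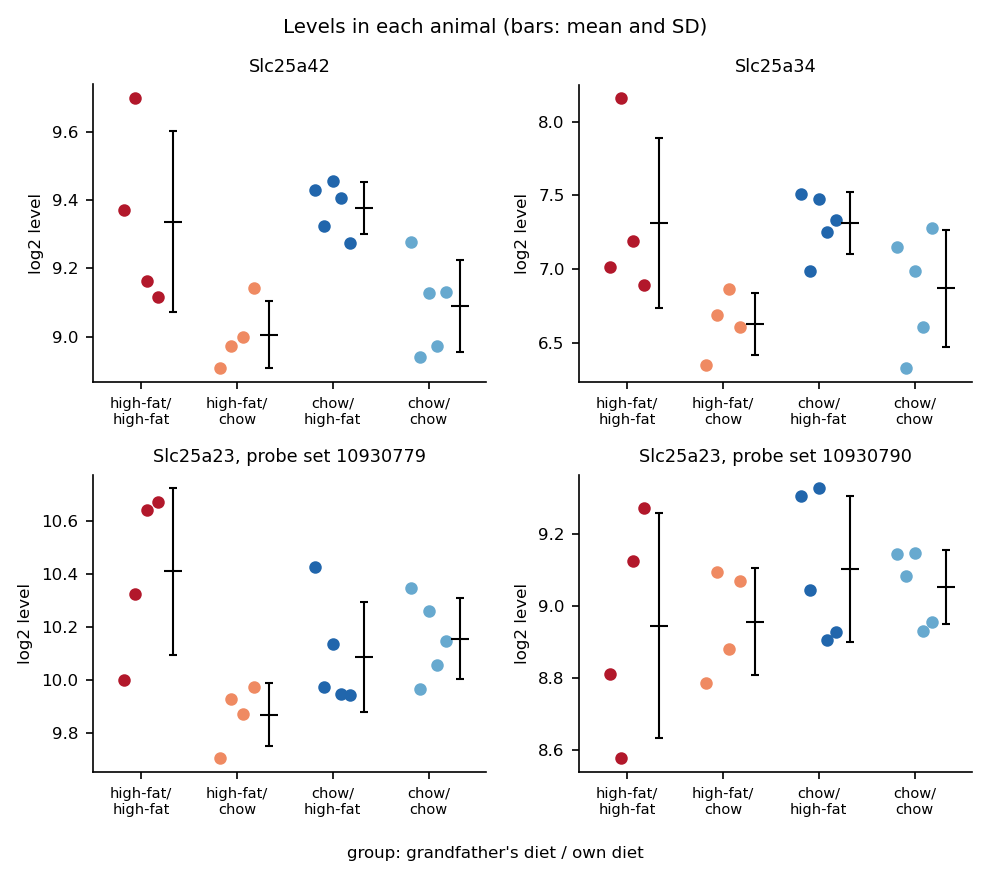
Log2 level in each female, with group mean and SD, for Slc25a42, Slc25a34 and each probe set of Slc25a23. In the high-fat lineage the groups of Slc25a34 and of probe set 10930779 of Slc25a23 do not overlap. Those of probe set 10930790 of Slc25a23 overlap. Slc25a42 lies higher on average with the high-fat diet in both lineages.

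The female's own diet was also compared within each lineage. In the chow lineage 0 of 38 carriers passed the threshold, as did 0% of all genes. At an unadjusted p under 0.05 there were 2, Slc25a42 and Slc25a34 (5.26%, against 4.8% of all genes), both higher with the high-fat diet (2.49%). That count was 1 without high-fat/chow replicate 4, chow/high-fat replicate 4 or 5, or chow/chow replicate 2, and 3 without chow/chow replicate 3. Over the other settings it ran between 1, as with arrays centred on their medians, and 6 with the table as deposited. In the high-fat lineage 0 carriers passed, against 0% of all genes. The unadjusted count there was 4 (10.5%, against 9.25%), all higher with the high-fat diet (4.86%). Groups without overlap were found for 2 carriers in the high-fat lineage, both with higher levels on the high-fat diet (5.26%, against 2.06% of all genes), and for 0 in the chow lineage, where 0.419% of all genes were higher and 0.34% lower without overlap. The other gene named there was Slc25a27, a brain carrier related to the uncoupling proteins. It measured 5.93, 5.90, 6.15 and 6.06 in high-fat/high-fat females, against 5.81, 5.90, 5.81 and 5.79 in high-fat/chow ones, a difference of 0.18 (SE 0.074, adjusted p = 0.486). The groups overlapped by a single high-fat/chow female. In the chow lineage Slc25a27 was 5.89, 5.76, 5.77, 5.88 and 5.92 with the high-fat diet, against 5.82, 6.07, 5.97, 5.998 and 5.80 with chow, and its interaction was 0.27 (SE 0.10, adjusted p = 0.649). Slc25a24, another calcium-sensitive ATP-Mg/phosphate carrier, was 5.94, 5.69, 5.58, 5.93 and 5.92 in chow/high-fat females, against 6.04, 6.06, 5.65, 6.08 and 6.28 in chow/chow ones. Its difference there of -0.21 (SE 0.11) was met by -0.21 in its other probe set (SE 0.090). In the high-fat lineage Slc25a24 was 6.09, 5.87, 5.73 and 5.955 with the high-fat diet, against 5.84, 6.08, 6.18 and 6.02 with chow. The difference in that lineage was -0.12 (SE 0.12), and -0.0022 in the other probe set (SE 0.10).

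Of the 4 ADP/ATP and phosphate carriers, which stand at the centre of ATP production, 0 had an unadjusted p under 0.05 in the averaged own-diet comparison. Slc25a4, the ADP/ATP carrier of muscle and heart, had the smallest spread of the family, a within-group SD of 0.043. Its log2 level ran between 12.58 and 12.68 in high-fat/high-fat females, 12.52 and 12.69 in high-fat/chow, 12.62 and 12.68 in chow/high-fat and 12.65 and 12.71 in chow/chow. The own-diet difference was -0.0015 with an interval of -0.078 to 0.075, and the grandpaternal one -0.044 with an interval of -0.12 to 0.032. The grandpaternal value depended on the scaling: it was -0.11 with the table as deposited and -0.18 with arrays centred on their medians (limma adjusted p = 0.0865). For the phosphate carrier Slc25a3 the own-diet difference was -0.048 (interval -0.14 to 0.047). The ADP/ATP carrier Slc25a5 gave 0.034 (interval -0.074 to 0.14) and the testis form Slc25a31 0.0073 (interval -0.10 to 0.12).

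Carriers of di- and tricarboxylates also stayed close to 0 for the female's own diet. Slc25a11, the oxoglutarate carrier of the malate-aspartate shuttle, ran between 12.13 and 12.28 in high-fat/high-fat, 12.13 and 12.20 in high-fat/chow, 12.03 and 12.23 in chow/high-fat and 12.11 and 12.19 in chow/chow. Its own-diet difference was 0.0057 (interval -0.079 to 0.091). The citrate carrier Slc25a1 gave 0.030 (interval -0.081 to 0.14) and the dicarboxylate carrier Slc25a10 0.021 (interval -0.11 to 0.15). For the grandpaternal diet all 3 differences were above 0, at 0.068, 0.050 and 0.12 for Slc25a11, Slc25a1 and Slc25a10, and 0 of them had an unadjusted p under 0.05. That of Slc25a11 was -0.048 with arrays centred on their medians in place of quantile normalization.

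Among the 10 carriers of amino acids and glutathione, own-diet differences ran between -0.19 in Slc25a29, a carrier of basic amino acids, and 0.27 in Slc25a22. The aspartate/glutamate carrier Slc25a13 gave -0.030 (interval -0.17 to 0.10). The branched-chain amino acid carrier Slc25a44 gave -0.029 (interval -0.17 to 0.11). The glycine carrier Slc25a38, which supplies haem synthesis, gave -0.10 (interval -0.28 to 0.070). The glutathione carriers Slc25a39 and Slc25a40 gave 0.030 and 0.084, and the ornithine carrier Slc25a15 0.037. Of the 7 carriers of nucleotides and cofactors, 6 had differences above 0, and apart from Slc25a42 they lay between -0.027 in the S-adenosylmethionine carrier Slc25a26 and 0.048 in Slc25a16, linked to coenzyme A. The iron carriers Slc25a28 (mitoferrin 2) and Slc25a37 (mitoferrin 1) gave -0.050 and -0.028.

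The widest spread of the family was that of Slc25a25, a calcium-sensitive ATP-Mg/phosphate carrier, with a within-group SD of 0.557 and a range of 2.21 log2 over all animals. Its level was 8.06, 8.40, 8.03 and 8.75 in high-fat/high-fat females, 8.72, 7.66, 8.58 and 8 in high-fat/chow, 8.29, 8.63, 8.41, 8.01 and 8.497 in chow/high-fat and 8.65, 9.12, 8.48, 6.91 and 7.69 in chow/chow. Both the highest and the lowest animal were in the chow/chow group. Its own-diet difference was 0.13 with an interval of -0.34 to 0.61, and it was -0.024 without chow/chow replicate 4, the lowest animal. A difference of the size seen in Slc25a42 was not detectable in it. Over the 38 members the median within-group SD was 0.149, against 0.136 over all genes, and those of Slc25a34 and Slc25a22 were 0.372 and 0.277.

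**Figure D3:**
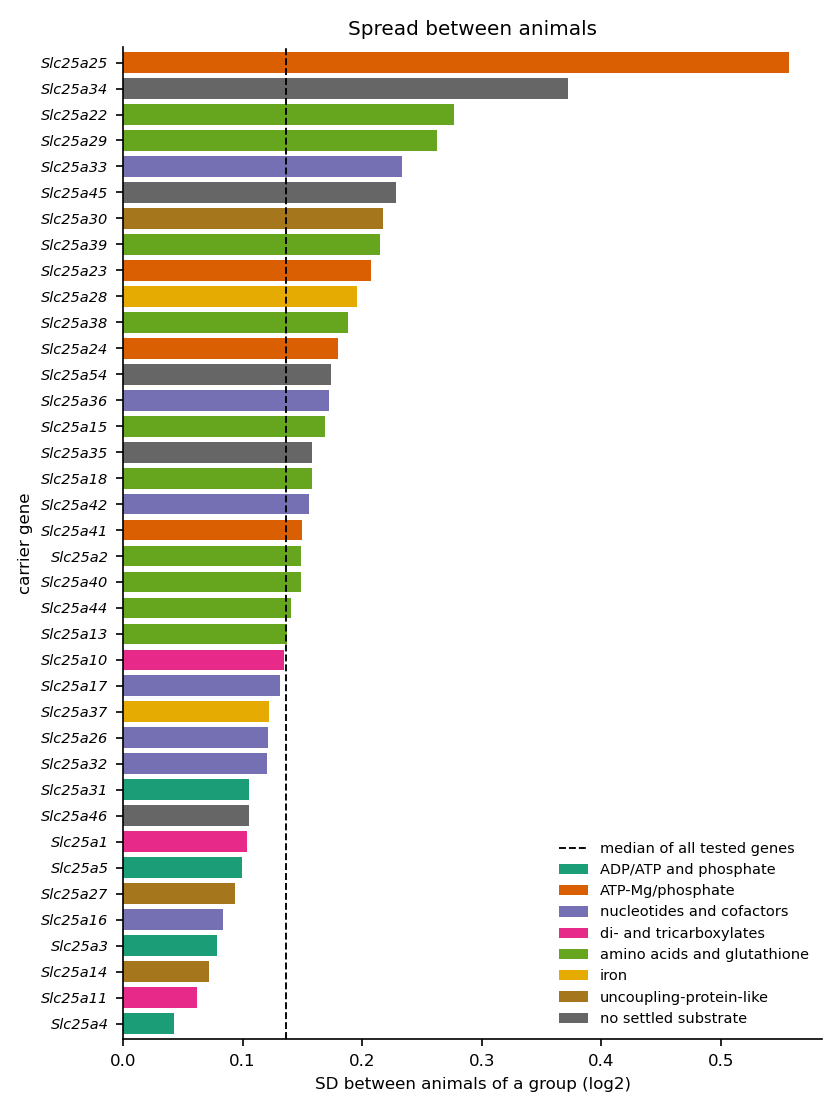
Within-group SD (log2, over all 18 arrays) of each tested carrier. Slc25a25 has the largest SD (0.557) and Slc25a4 the smallest (0.043), Slc25a34 and Slc25a22 come after Slc25a25, and the dashed line is the median of all tested genes (0.136).

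The diet of the grandfather, averaged over both own diets, left 0 of 38 carriers past the threshold, where 0.198% of all genes passed. At an unadjusted p under 0.05 there were 3 carriers (7.89%), against 14.6% of all genes. Slc25a46 was higher in the high-fat lineage, and Slc25a30 and Slc25a28 were lower (7.75% of all genes were higher and 6.89% lower at that p). Differences above and below 0 were equally many, 19 and 19 (48.8% of all genes lay above 0), with a median of -0.0071 against -0.0027 over all genes. The unadjusted count was 6 with arrays centred on their medians, 5 without high-fat/chow replicate 1 or chow/high-fat replicate 3, and 1 without high-fat/chow replicate 3, chow/high-fat replicate 2 or 4, or chow/chow replicate 5.

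Slc25a46 sits in the outer membrane and takes part in shaping mitochondria. Its log2 level was 9.44, 9.41, 9.67 and 9.48 in high-fat/high-fat females, against 9.30, 9.15, 9.27, 9.43 and 9.28 in chow/high-fat ones. It was 9.52, 9.44, 9.38 and 9.26 in high-fat/chow females, against 9.27, 9.20, 9.45, 9.24 and 9.27 in chow/chow ones. Most females of the high-fat lineage lay above most of the chow lineage, with overlap at both own diets. The difference was 0.16 (SE 0.053, interval 0.052 to 0.28, adjusted p = 0.161), made of 0.21 at the high-fat own diet and 0.12 at the chow own diet. The last value was 0.077 without high-fat/chow replicate 1. Within the well columns it was 0.30 and 0.25 at the high-fat own diet and 0.18, 0.071 and -0.0053 at the chow own diet. Those at the high-fat own diet hold 1 high-fat/high-fat female each, and 0.071 and -0.0053 each set 1 female against 1. The well column that gives no value at the high-fat own diet holds no chow/high-fat female.

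Slc25a30, a kidney carrier related to the uncoupling proteins, was 7.74, 7.07, 7.15 and 7.61 in high-fat/chow females, against 7.64, 7.86, 7.83, 7.54 and 7.81 in chow/chow ones. With the high-fat own diet it was 7.37, 7.57, 7.33 and 7.79 in high-fat/high-fat females, against 7.28, 7.65, 7.69, 7.59 and 7.70 in chow/high-fat ones. The high-fat/chow females split into a lower and a higher pair, and the higher pair lay inside the range of the chow/chow group. The averaged difference was -0.21 (SE 0.094, adjusted p = 0.314), and at the chow own diet it was -0.34 (SE 0.13, adjusted p = 0.485). The mitoferrin Slc25a28 was 10.33, 10.05, 10.38 and 9.77 in high-fat/high-fat females, against 10.39, 10.58, 10.25, 10.47 and 10.40 in chow/high-fat ones. It was 10.58, 10.28, 10.11 and 10.17 in high-fat/chow females, against 10.12, 10.39, 10.40, 10.58 and 10.32 in chow/chow ones, with overlap in both pairs. Its averaged difference was -0.18 (SE 0.086, adjusted p = 0.341). Leaving out high-fat/high-fat replicate 4 gave -0.12.

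**Figure D4:**
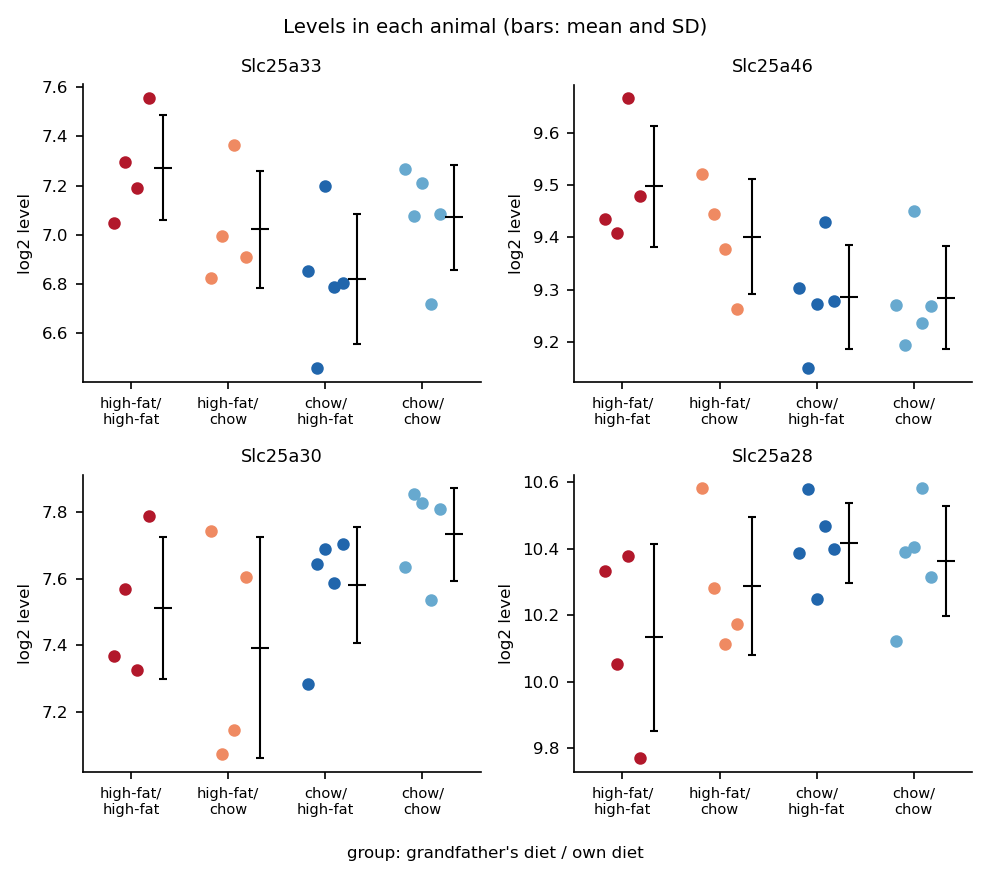
Log2 level in each female, with group mean and SD, for the 4 carriers of smallest p for the diet of the grandfather. Slc25a33 and Slc25a46 are highest in high-fat/high-fat females on average, and every pair of groups that differs only in the grandfather's diet overlaps.

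At the high-fat own diet the grandpaternal comparison again gave 0 carriers past the threshold, against 0% of all genes. The unadjusted count was 6 (15.8%, against 13.3%), with 5 higher and 1 lower (6.68% and 6.63% of all genes), and it was 10 without chow/high-fat replicate 1. Over the other settings that count ran between 4 and 13, the highest with the table as deposited. The smallest p was that of Slc25a33, which imports pyrimidine nucleotides. Its log2 level was 7.05, 7.30, 7.19 and 7.56 in high-fat/high-fat females, against 6.85, 6.46, 7.20, 6.79 and 6.81 in chow/high-fat ones, where a single female reached into the range of the other group. The difference was 0.45 (SE 0.14, interval 0.16 to 0.75, adjusted p = 0.171). It was 0.37 and 0.73 within the 2 well columns that hold both groups, each with 1 high-fat/high-fat female. At the chow own diet Slc25a33 was 6.82, 6.99, 7.36 and 6.91 in high-fat/chow females, against 7.27, 7.08, 7.21, 6.72 and 7.08 in chow/chow ones, a difference of -0.048 (SE 0.14). Its interaction of 0.50 (SE 0.20) had an adjusted p of 0.666. The closely related pyrimidine nucleotide carrier Slc25a36 gave -0.21 at the high-fat own diet, with an interval of -0.44 to 0.019. Slc25a2, an ornithine carrier, was 6.58, 6.70, 6.55 and 6.73 in high-fat/high-fat females, against 6.52, 6.27, 6.23, 6.45 and 6.57 in chow/high-fat ones. Only the highest of the chow/high-fat females reached the range of the high-fat/high-fat group. The difference was 0.23 (SE 0.097, adjusted p = 0.293), against 0.017 at the chow own diet, where Slc25a2 was 6.60, 6.44, 6.33 and 6.48 in high-fat/chow and 6.19, 6.66, 6.38, 6.63 and 6.38 in chow/chow females. Slc25a23 differed by 0.32 at the high-fat own diet (SE 0.13, adjusted p = 0.271) and by -0.29 at the chow own diet (SE 0.13, adjusted p = 0.553). Its second probe set gave -0.16 and -0.096.

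At the chow own diet 0 carriers passed, against 0.00791% of all genes. Slc25a30 and Slc25a23, both lower in the high-fat lineage, were at an unadjusted p under 0.05 (5.26% of 38, against 8.75% of all genes in both directions and 4.41% lower). That count was 0 without high-fat/chow replicate 3 and 1 without high-fat/chow replicate 2 or chow/chow replicate 1 or 5. Slc25a18 came next, 6.97, 7.18, 6.999 and 7.14 in high-fat/chow females, against 6.63, 7.03, 7.21, 6.70 and 6.95 in chow/chow ones, a difference of 0.17 (SE 0.10, adjusted p = 0.677), or 0.098 without chow/chow replicate 1. With the high-fat own diet it was 6.87, 7.03, 7.04 and 6.97 in high-fat/high-fat females, against 7.05, 6.85, 7.22, 6.97 and 6.96 in chow/high-fat ones. All 4 groups of this gene overlapped. In both grandpaternal comparisons at 1 own diet, 0 carriers had groups without overlap, where 2.37% of all genes had them higher and 2.34% lower at the high-fat own diet, and 1.53% higher and 1.75% lower at the chow own diet.

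Whether the response to the female's own diet depended on the lineage was tested as the interaction, positive where the difference was larger in the high-fat lineage. Here 0 of 38 carriers passed, against 0% of all genes. Slc25a23, Slc25a27 and Slc25a33, all positive, had an unadjusted p under 0.05 (7.89%, against 6.83% of all genes and 3.57% with a positive value), and the count was 5 without high-fat/chow replicate 4. Over the other settings that count ran between 2 and 12, the highest with the table as deposited. Slc25a37, which brings iron into mitochondria of red cell precursors, was next with 0.22 (SE 0.12, adjusted p = 0.741). It measured 6.78, 6.73, 6.95 and 6.82 in high-fat/high-fat females, against 6.65, 6.88, 6.55 and 6.88 in high-fat/chow, and 6.83, 6.58, 6.79, 6.76 and 6.53 in chow/high-fat females, against 6.95, 6.78, 6.84, 6.86 and 6.73 in chow/chow. Groups overlapped in both lineages.

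**Figure D5:**
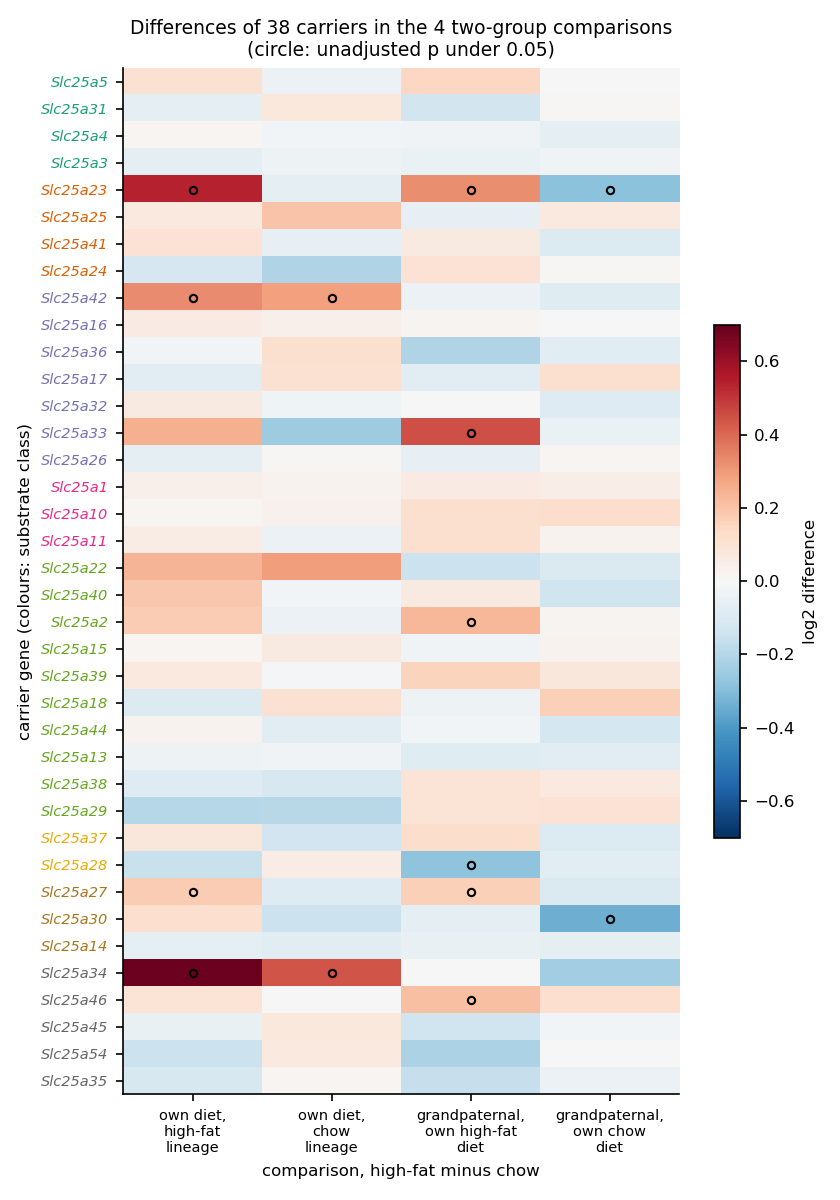
Log2 differences of the 38 tested carriers for the own diet in each lineage and for the diet of the grandfather at each own diet. Circles mark an unadjusted p under 0.05. The comparisons share groups of animals, and in each most carriers lie near 0.

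Comparisons within a lineage or at 1 own diet, the averaged grandpaternal comparison and the interaction depended on how the arrays were scaled. Without quantile normalization the median difference of all genes was 0.11 for the own diet in the high-fat lineage, -0.13 in the chow lineage, 0.18 for the grandpaternal diet at the high-fat own diet and -0.056 at the chow own diet. The number of carriers with a difference above 0 followed it, with 33, 6, 33 and 9 of 38 against 23, 18, 19 and 15 after normalization (49.6%, 48.6%, 50.4% and 49.5% of all genes). On the table as deposited 7 carriers passed the threshold for the grandpaternal diet at the high-fat own diet, as did 1689 of all genes, 1686 of them higher. These 7 were Slc25a2, Slc25a5, Slc25a23, Slc25a27, Slc25a33, Slc25a37 and Slc25a46, with differences between 0.29 and 0.65. The averaged own-diet values depended on it less: 21 carriers lay above 0 as deposited, against 24. For the averaged grandpaternal diet 25 lay above 0 as deposited, against 19, and for the interaction 35, against 22. The median of all genes as deposited was 0.059 and 0.24 in these comparisons.

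Other routes into mitochondria were set beside the family. Slc25a20, which brings acylcarnitines in for fatty acid oxidation, differed by 0.34 for the own diet (SE 0.090, adjusted p = 0.333). Of 21 other tested genes of mitochondrial transport, Slc25a20 included, most act at the inner membrane, while Mtch1, Mtch2 and Tspo belong to the outer one. For the own diet 14 had differences above 0 and 7 below, 1 had an unadjusted p under 0.05 (4.76%, against 6.73% of all genes) and 0 passed. Uncoupling proteins 2 and 3, encoded by Ucp2 and Ucp3, belong to the same protein family under other symbols and gave 0.14 (SE 0.33) and 0.30 (SE 0.17). For the grandpaternal diet 13 of the 21 lay above 0 and 3 had an unadjusted p under 0.05 (14.3%, against 14.6% of all genes). The smallest p was that of Mtch1, an outer-membrane insertase, at 0.24 (adjusted p = 0.146). Of 17 tested genes of carrier import and outer-membrane passage, 5 lay above 0 and 12 below for the own diet, with Timm22, the core of the carrier translocase, at -0.15. For the grandpaternal diet 9 lay above 0, with Timm10b at 0.24. In both comparisons 0 of these genes passed.

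The amount of mitochondrial message was followed by 18 tested genes of the citric acid cycle and the respiratory chain. Their median own-diet difference was 0.012, with 11 above 0, and their median grandpaternal difference was -0.047, with 7 above 0. For the grandpaternal diet 4 of the 18 had an unadjusted p under 0.05 (22.2%, against 14.6% of all genes). Citrate synthase (Cs), often used as a measure of mitochondrial content, had the smallest p of them and a difference of 0.21 (SE 0.055, limma adjusted p = 0.0974), opposite in sign to the median. Markers of fast fibres, which define this muscle, were well detected, with a summed intensity of the 8 tested genes between 54300 and 59400 in all animals. Myh4, Myh1, Mylpf and Atp2a1, also on that list of 12, were not among the genes tested. For the own diet 0 of the 8 lay above 0, with a median of -0.033 and 0 at an unadjusted p under 0.05. For the grandpaternal diet 5 lay above 0, with a median of 0.025. Slow-fibre markers varied far more between animals: the summed intensity of 13 genes ran between 5560 and 19100 in high-fat/high-fat, 7070 and 17600 in high-fat/chow, 7280 and 22300 in chow/high-fat and 12100 and 22300 in chow/chow females. Their median difference was -0.45 for the grandpaternal diet, with 3 of 13 above 0, and 0.047 for the own diet. For the grandpaternal diet 4 of the 13 had an unadjusted p under 0.05 (30.8%, against 14.6% of all genes). By lineage the own-diet median of these slow-fibre genes was 0.41 in the high-fat lineage, with 12 of 13 above 0, and -0.33 in the chow lineage, with 0 of 13 above 0. Their median interaction was 0.76, with 13 of 13 positive and 0 at an unadjusted p under 0.05. At the chow own diet their grandpaternal median was -0.73, with 12 of 13 below 0 and 6 at an unadjusted p under 0.05 (46.2%, against 8.75% of all genes), while at the high-fat own diet it was 0.055. Markers of fibroblasts and leukocytes had own-diet differences below 0 in 8 of 8 and 8 of 8 genes, with medians of -0.21 and -0.21, and tendon markers in 7 of 7, with a median of -0.22. At an unadjusted p under 0.05 stood 6 of the 8 leukocyte, 4 of the 8 fibroblast and 1 of the 7 tendon markers (75%, 50% and 14.3%, against 6.73% of all genes). Their summed levels overlapped: for leukocytes 1090 to 1220 in high-fat/high-fat, 1120 to 1370 in high-fat/chow, 903 to 1230 in chow/high-fat and 979 to 1350 in chow/chow. For fibroblasts they were 7050 to 8580 in high-fat/high-fat, 8190 to 10400 in high-fat/chow, 5710 to 8670 in chow/high-fat and 7590 to 10100 in chow/chow, and for tendon 2580 to 3580 in high-fat/high-fat, 2700 to 4280 in high-fat/chow, 1610 to 4650 in chow/high-fat and 2740 to 4180 in chow/chow. Red cell markers lay above 0 in 4 of 4 genes (median 0.22), those of endothelium below 0 in 4 of 4 (median -0.040), and fat cell and nerve markers had medians of 0.030 and -0.023. Of the brown fat markers only Cidea was tested, at 0.43, and the other 3 lay below the filter. The part of these fibre and cell types in the carriers' differences was not tested, and 0 genes of any of these lists passed the threshold in either averaged comparison.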

How the data were processed

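RNA of 18 EDL muscles, 200 ng per array, was hybridized to 18 Affymetrix arrays. The deposited table holds a linear intensity for each of 20917 probe sets per array, made with Affymetrix Expression Console and PLIER per the submitters' processing notes. Versions and settings are not given in the sources used here. Over all 20917 probe sets, log2(intensity + 16) was quantile-normalized, because the deposited array medians differed by more than 0.1 log2 (by 0.43). Of these, the 18197 probe sets with 1 symbol were then used. Keeping 1 probe set per gene by highest mean, and means above the 25th percentile, left 12642 genes. Group means were modelled over the 18 arrays with limma 3.58.1 in R 4.3.3. For each of 7 comparisons, two-sided p-values were adjusted over the 12642 genes by Benjamini and Hochberg's method, with a threshold of 0.05. p-values not called adjusted are unadjusted. Arrays have no read depth, so precision rests on how many there are.

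Members, lists and named genes were chosen with earlier results of these data known. Values in every animal are given for the 4 tested members of smallest p in each comparison (13 genes), and for Slc25a25 after its values were seen. Of a panel of 16 carriers, the 14 tested are followed by range or difference, and the other members by class. Of 13 gene lists of transport, mitochondrial and cell type markers, counts and medians are given, and by name mainly the genes of smallest p. Promoter sequences are RefSeq's, matched by gene. A search for duplicated arrays over 32 pairs within groups found at most 0.0908% identical values. The test was also run on simulated data with known changes. Whether animals of a group came from separate litters is not stated, so p-values measure the spread between these animals. Other settings tried were the table as deposited, centring on array medians, offsets of 1 and 64, other filters, robust eBayes, array weights, the 2 groups alone, well column and neighbouring animal numbers as blocks, each array left out and, chosen after seeing the data, neighbouring animal numbers as a fixed block.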

Additional observations from a re-analysis of the deposited data

Results flagged for a closer look

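Of 92 sets of values (23 carriers named or in the panel, in 4 groups each), 1 held an animal far from the others of its group. Slc25a30 was 7.28 in chow/high-fat replicate 1, while the nearest other female of that group had 7.59, a gap of 0.721 of the group's whole range. Chance flags about 1 in 20 such groups. Slc25a30 is a kidney carrier related to the uncoupling proteins.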

How the results depend on the processing

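For 81 results, 2421 values were recomputed under other settings, and 2287 kept their direction and their side of the threshold or stayed within 1.5 times a count, or within the replicate spread. The number of carriers past the threshold changed in 2 comparisons. For the grandpaternal diet at the high-fat own diet 7 passed with the table as deposited, against 0 in the other settings tried and without any single array. For the own diet in the high-fat lineage 1 passed in a paired fit chosen after seeing the data, described at the end. With the table as deposited the median change of the members was 0.19 for the grandpaternal diet at the high-fat own diet, -0.085 at the chow own diet, 0.058 for its average, 0.13 and -0.14 for the own diet in the high-fat and the chow lineage, and 0.24 for the interaction, where the median of all genes was 0.18, -0.056, 0.059, 0.11, -0.13 and 0.24. Leaving out single arrays, the median member change of the grandpaternal diet at the high-fat own diet ran between -0.029 and 0.032. The cause was not tested. Over the same arrays left out, Slc25a42 kept an averaged own-diet difference of 0.25 to 0.35, with a limma adjusted p between 0.0733 and 0.406. Slc25a34 kept one of 0.42 to 0.64. The number of all genes called for the averaged own diet, 2, ran between 0 with an offset of 1 and 15 with the well column as a block, and for the averaged grandpaternal diet, 25, between 0 with the table as deposited and 252 with array weights. Without high-fat/chow replicate 1 it was 303. The sample titles carry no replicate numbers shared between groups, and the labels do not say that neighbouring animal numbers mark relatives. Numbers 3 or fewer apart in 1 lineage form 8 pairs, and the deviations of paired females from their group means correlated, across genes, between -0.037 and 0.41, over 0.1 in 7 of the 8. As a random block (estimated correlation 0.126) the pairs gave 0 carriers past the threshold in all 7 comparisons, 14 of all genes for the averaged own diet and 0 for the averaged grandpaternal diet, where 1 carrier had an unadjusted p under 0.05, against 3. As a fixed block, which takes in only the paired females and the own-diet comparisons, they gave 1 of all genes past the threshold in the high-fat lineage, Slc25a23 (0.71, limma adjusted p = 0.0237, 3 pairs), and 0 carriers in the chow lineage, on average and for the interaction. The second probe set of Slc25a23 was not refitted in this way and gave -0.011 without the block. The number of arrays limits the precision, and the 3 carriers below the filter on low values were not tested.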
